A study of Mus musculus with 4 samples.

Results

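The mouse cytochrome P450 genes were followed in liver RNA from 2 Cnot3+/- and 2 wild-type mice. Members were the probe sets whose single platform gene symbol is Cyp followed by a family number, a subfamily letter and a gene number, which leaves out Cyp51 and symbols with a second letter such as Cyp4a12a. The rule found 93 of the 45101 probe sets, for 70 of the 18194 genes with a symbol of their own. Of the 93, 72 lay above the lowest 40% of mean signal, and 58 of the 70 genes were tested, each through 1 probe set, among 13379 genes in all. A further 4 probe sets that carry several symbols with a P450 gene among them were not members, so Cyp4a10, Cyp2a4 and Cyp2a5 are not described.

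All 4 animals were male C57BL/6J mice, 12 weeks old, kept on normal chow and then without food for 24 h, housed singly. The labels call one pair Cnot3 heterozygotes and the other wild-type, and they do not say which part of Cnot3 is altered or how. Each array carried biotin-labelled cRNA from liver, and precision is limited by having 2 arrays per genotype. They are called Cnot3+/- 1, Cnot3+/- 2, wild-type 1 and wild-type 2 after their labels, and values are log2 expression values. The comparison asks how the fasted liver of each genotype expresses its P450 genes.

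P450 enzymes are heme-containing monooxygenases. In the endoplasmic reticulum they take electrons from P450 reductase and cytochrome b5, and in mitochondria from adrenodoxin. Liver is their main site: families 1 to 3 oxidise drugs, foreign chemicals and steroids, family 4 hydroxylates fatty acids, and further families make bile acids or break down retinoids and vitamin D. Many are switched by nuclear receptors and the aryl hydrocarbon receptor, several lie in the hepatocytes around the central vein, and inflammation is known to lower a number of them. CCR4-NOT, the complex that CNOT3 belongs to, shortens the poly(A) tails of mRNAs.

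Arrays had close medians, from 4.62 to 4.66. The defining hepatocyte gene Alb stood at 14.83 and 14.87 in Cnot3+/- and at 14.80 and 14.86 in wild-type. That is near the highest value of 14.96, where differences are compressed, so Alb cannot measure the hepatocyte share of an array. Cnot3 itself did not separate the genotypes as labelled: 1 probe set gave 7.70 and 7.86 in Cnot3+/- versus 7.48 and 8.14 in wild-type, and a dimmer one gave 5.54 and 5.54 in Cnot3+/- and 5.33 and 5.52 in wild-type, higher in Cnot3+/-. The labels do not place its probes relative to the altered part, so genotype directions rest on the labels. Over all genes tested, 432 lay at least 2-fold apart between the Cnot3+/- arrays and 74 between the wild-type arrays. Macrophage markers set Cnot3+/- 2 apart from the other 3 arrays: 12 of 12 listed genes were tested, and their mean lay -0.34 (Cnot3+/- 1), 1.79 (Cnot3+/- 2), -0.11 (wild-type 1) and 0.11 (wild-type 2) from the wild-type mean. Clec4f, a Kupffer cell gene, ranged from 8.74 to 10.37 in Cnot3+/- and from 8.98 to 9.31 in wild-type. In RNA of whole liver, fewer cells of a type and less RNA per cell cannot be told apart.

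No P450 gene passed the test. The smallest adjusted p among the 58 was 0.999 (limma, Benjamini-Hochberg over 13379 genes), while 2 genes passed in the whole comparison (0.0149% of those tested). At an unadjusted p under 0.05 in limma, 3 of 58 P450 genes (5.17%) were called against 3.59% of all genes: Cyp4b1, Cyp2d40 and Cyp2c29, all lower in Cnot3+/-. Without moderation of variances these shares were 3.45% of P450 genes and 4.55% of all genes, the other way round. In other changes of the processing or the model the P450 share was 4.65% to 7.14%, against 3.20% to 4.48% of all genes. These shares rest on 2 to 5 P450 genes each and on the same 4 arrays, so they do not establish an excess. In the fit of every probe set Cyp2j6, which was higher in Cnot3+/-, joined the 3 lower genes. Since no P450 gene passed, their differences appear below as values with their errors, in the order of the enzymes' roles. The promoters printed next belong to the members whose values open or anchor the description: Cyp4b1 and Cyp2j6, at the lower and upper end of the tested differences, Cyp2c29, an abundant gene of the 3 with the smallest p, and Cyp1a2, an abundant gene with no overlap in the other direction.

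Each sequence is the 250 bases before the start of transcription in the RefSeq table of build GRCm38.p6, read 5′ to 3′ on the gene's strand. Capitals mark AGGTCA, a core recognition motif of many nuclear receptors, GCGTG, the core of the aryl hydrocarbon receptor element, and TATAA, the core of the TATA box, on either strand. Matches to TATAA and its reverse complement overlap in Cyp1a2 and Cyp2c29.
Cyp4b1 (chr4:115647722-115647971, minus strand): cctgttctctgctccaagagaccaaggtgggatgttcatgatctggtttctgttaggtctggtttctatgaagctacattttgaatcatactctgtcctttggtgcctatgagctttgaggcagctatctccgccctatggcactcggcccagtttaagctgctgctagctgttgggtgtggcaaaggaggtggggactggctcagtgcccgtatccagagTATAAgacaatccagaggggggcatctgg
Cyp2c29 (chr19:39286835-39287084, plus strand): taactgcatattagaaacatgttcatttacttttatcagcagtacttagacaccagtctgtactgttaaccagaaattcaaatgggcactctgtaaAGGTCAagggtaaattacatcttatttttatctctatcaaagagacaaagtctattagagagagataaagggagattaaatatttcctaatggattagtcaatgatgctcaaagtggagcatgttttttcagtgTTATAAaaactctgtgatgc
Cyp1a2 (chr9:57683656-57683905, minus strand): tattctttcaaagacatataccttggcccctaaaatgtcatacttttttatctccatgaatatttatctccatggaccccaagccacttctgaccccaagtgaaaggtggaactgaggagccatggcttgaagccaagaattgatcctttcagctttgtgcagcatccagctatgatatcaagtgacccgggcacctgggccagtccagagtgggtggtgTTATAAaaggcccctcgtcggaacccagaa
Cyp2j6 (chr4:96553652-96553901, minus strand): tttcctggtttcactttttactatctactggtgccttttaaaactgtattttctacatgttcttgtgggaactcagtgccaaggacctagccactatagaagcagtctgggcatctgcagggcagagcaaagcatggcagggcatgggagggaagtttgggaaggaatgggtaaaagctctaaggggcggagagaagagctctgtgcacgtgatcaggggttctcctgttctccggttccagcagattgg
Cyp4b1 had 1 TATAA, 25 bases before the start. Cyp1a2 had it on both strands with the nearest 25 bases before the start, and Cyp2c29 likewise with the nearest at 15 bases. The window of Cyp2j6 held none of the 3 motifs, and AGGTCA was found only in that of Cyp2c29 among these 4. The table held 48 windows for 43 of the 58 tested P450 genes. TATAA was in 21 of them (43.8%) and in 22.8% of all 32851 windows, AGGTCA in 9 (18.8%, against 14.0% of all) and GCGTG in 11 (22.9%, against 28.2% of all). These are letter matches and not measured binding.

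As a family, the P450 genes had differences that centred near 0. Of the 58, 21 were higher and 37 lower in Cnot3+/- (63.8% lower, against 52.1% of all genes tested). Their median difference was -0.03, with the middle of the distribution from -0.16 to 0.08, against a median of -0.01 and quartiles of -0.12 and 0.12 over all genes. The groups did not overlap in 16 P450 genes (27.6%, against 31.5% of all genes), of which 7 were higher (14.1% of all genes were) and 9 lower (17.4% of all genes were). A difference of at least 1.5-fold with no overlap was seen in 1 P450 gene, Cyp4b1 (1.72%, against 2.02% of all genes, 1.32% higher and 0.703% lower). The excess of lower genes did not hold without every array: 34 of the 58 were higher without Cnot3+/- 2, where the median was 0.04, and 30 without wild-type 2. Over the 4 ways of leaving out an array, 26 genes kept their direction, 12 higher and 14 lower, and 32 turned at least once.

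**Figure D1:**
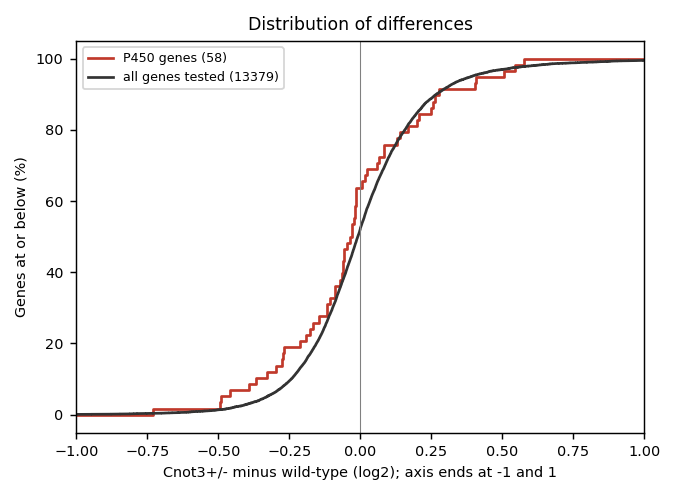
Cumulative share of genes (vertical, %) by their Cnot3+/- minus wild-type difference on the log2 scale (horizontal), for the 58 P450 genes in red and all 13379 genes tested in black. At 0 the P450 curve stands at 63.8% and that of all genes at 52.1%, and the P450 curve ends at 0.58.

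**Figure D2:**
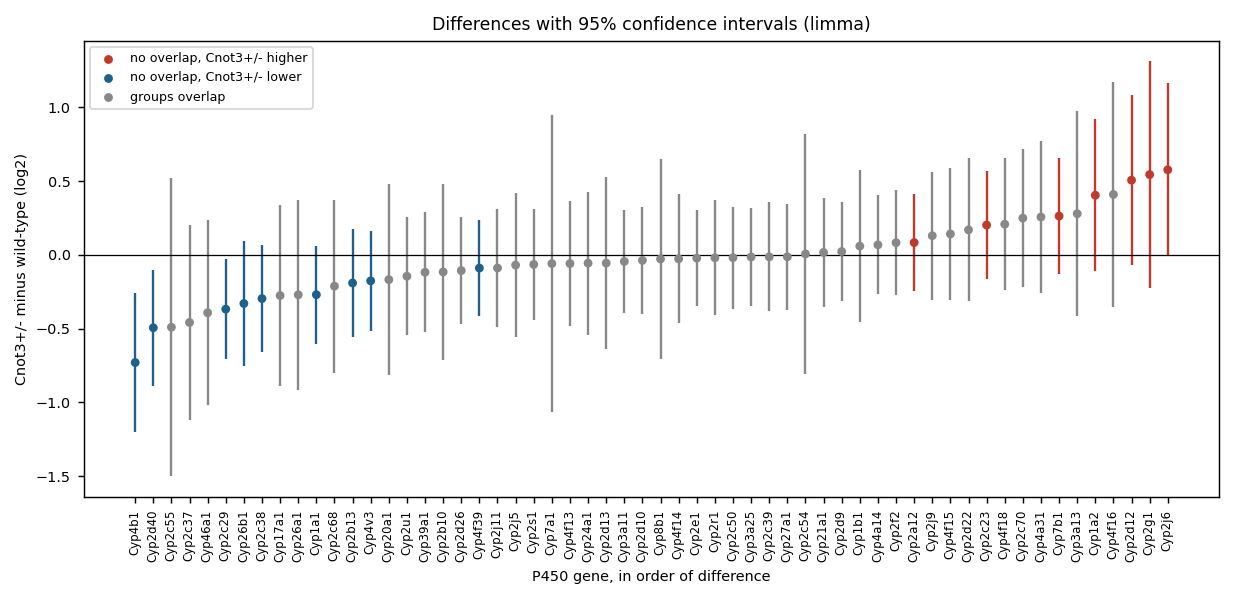
Difference of each P450 gene (vertical, log2, Cnot3+/- minus wild-type, points) with limma's 95% confidence interval (lines), in order of size along the horizontal axis. Red and blue mark the 7 higher and 9 lower genes whose groups do not overlap, and 3 intervals, those of Cyp4b1, Cyp2d40 and Cyp2c29, leave out 0.

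Cyp7a1 and Cyp8b1, enzymes of bile acid synthesis, differed more between the 2 Cnot3+/- livers than between the genotypes. Cyp7a1, the rate-limiting enzyme of the classical pathway, had values of 9.87 and 8.70 in Cnot3+/-, and of 9.46 and 9.23 in wild-type. Its Cnot3+/- values lay on either side of both wild-type values, and the difference of -0.06 (SE 0.39) went from -0.65 without Cnot3+/- 1 to 0.53 without Cnot3+/- 2. A second Cyp7a1 probe set had the same order, at 8.05 and 6.88 in Cnot3+/- and 7.94 and 7.41 in wild-type. Cyp8b1, the sterol 12-alpha-hydroxylase that sets the share of cholic acid, stood at 10.82 and 10.07 in Cnot3+/-, beside 10.48 and 10.47 in wild-type (difference -0.03, SE 0.27), again on either side of wild-type. Cyp27a1, the mitochondrial sterol 27-hydroxylase, stayed within 11.98 to 12.03 in Cnot3+/- and 11.92 to 12.12 in wild-type.

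Cyp7b1, the oxysterol 7-alpha-hydroxylase of the alternative pathway, was the 1 gene of the 6 bile acid and sterol genes with no overlap (16.7%, against 31.5% of all genes). It stood at 12.69 and 12.42 in Cnot3+/-, with 12.32 and 12.26 in wild-type, a difference of 0.26 (SE 0.15), and a second probe set differed by 0.36. The remaining 5 had differences below 0, the largest that of Cyp46a1, the cholesterol 24-hydroxylase best known from brain, at -0.39 (SE 0.25), with 4.88 and 4.39 in Cnot3+/- and 4.79 and 5.26 in wild-type. Cyp39a1, which acts on 24-hydroxycholesterol, differed by -0.12 (SE 0.16). As a mean of the 6 genes, Cnot3+/- 1 was at 0.15 relative to wild-type and Cnot3+/- 2 at -0.27, the array on which macrophage markers were high, and the part of those cells in this was not tested.

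Enzymes of retinoid and vitamin D breakdown and activation had 4 of 4 tested genes with differences below 0, where 52.1% of all genes were. Cyp26b1, a retinoic acid hydroxylase, stood at 6.13 and 6.48 in Cnot3+/- versus 6.62 and 6.65 in wild-type (difference -0.33, SE 0.17), with no overlap. Cyp26a1, its liver-inducible relative, stood at 6.97 and 7.39 in Cnot3+/-, beside 7.17 and 7.73 in wild-type (difference -0.27, SE 0.25), where the groups overlapped and the difference was 0.01 without wild-type 2. Cyp24a1, the vitamin D 24-hydroxylase, and Cyp2r1, a vitamin D 25-hydroxylase, differed by -0.06 (SE 0.19) and -0.02 (SE 0.15). Both turned without Cnot3+/- 2, to 0.15 and 0.099. Among steroid hormone enzymes Cyp17a1, the 17-alpha-hydroxylase, stood at 6.66 and 6.02 in Cnot3+/-, with 6.71 and 6.52 in wild-type (difference -0.28, SE 0.24), and Cyp21a1, the 21-hydroxylase, differed by 0.02 (SE 0.15). Without Cnot3+/- 2 the Cyp17a1 difference was 0.04.

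Cyp4b1 had the largest difference among the probe sets tested, 1 per P450 gene. This family 4 enzyme hydroxylates fatty acids and activates some foreign chemicals, and is best known from lung. It stood at 7.51 and 7.94 in Cnot3+/- versus 8.49 and 8.42 in wild-type. Both Cnot3+/- values lay below both wild-type values, by at least the spread within either genotype. The difference was -0.73 (SE 0.19, 95% confidence interval -1.20 to -0.26, limma adjusted p = 0.999), which corresponds to 1.66-fold. Leaving out Cnot3+/- 2 gave -0.95 and leaving out Cnot3+/- 1 gave -0.51, and 1 probe set reads this gene. Its p ranked 79th of the 13379 genes. Cyp4a14 and Cyp4a31, the other tested genes of its cluster, did not share its direction, at 0.07 (SE 0.13) and 0.26 (SE 0.20).

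Of the 9 other family 4 genes tested, 5 were higher and 4 lower. Cyp4a14, an omega-hydroxylase that PPARalpha induces in fasting, stood at 12.79 and 12.85 in Cnot3+/-, beside 12.70 and 12.80 in wild-type. Cyp4a31 stood at 8.02 and 7.52 in Cnot3+/-, with 7.57 and 7.46 in wild-type, and its difference of 0.26 was 0.0058 without Cnot3+/- 1. Its second probe set gave a larger difference, 0.77, with 6.18 and 6.00 in Cnot3+/- versus 4.74 and 5.90 in wild-type, with no overlap and wild-type 1 the low array. Cyp4f16 stood at 4.79 and 5.23 in Cnot3+/-, beside 4.22 and 4.97 in wild-type (difference 0.41, SE 0.30), where the groups overlapped and the difference was 0.03 without wild-type 1 and 0.79 without wild-type 2. Cyp4v3, a fatty acid hydroxylase whose human counterpart is a retinal disease gene, had no overlap on either of its probe sets, at -0.18 (SE 0.13) on the one tested and -0.18 on the other. The PPARalpha targets outside the P450 family had 5 of 11 genes higher and 6 lower, with a median of -0.03 and none past the threshold; the largest differences were those of Pdk4 at 1.15 (SE 0.94) and of Vnn1, pantetheinase, at -0.46 (SE 0.14). Pdk4 differed by -0.26 without Cnot3+/- 2.

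The 3 family 1 genes, targets of the aryl hydrocarbon receptor, went in different directions. Cyp1a2, the abundant pericentral member that handles caffeine, stood at 11.87 and 12.17 in Cnot3+/-, with 11.41 and 11.82 in wild-type. The groups did not overlap, but Cnot3+/- 1 and wild-type 2 lay close together, and the difference of 0.40 (SE 0.20) was 0.20 without wild-type 1 and 0.61 without wild-type 2. Cyp1a1, the member most inducible by the receptor, stood at 4.18 and 4.27 in Cnot3+/- versus 4.50 and 4.49 in wild-type (difference -0.27, SE 0.13), below the median of every array, where differences are compressed. Cyp1b1 differed by 0.06 (SE 0.20). Ahr, the receptor's own gene, stood at 9.07 and 8.35 in Cnot3+/-, beside 7.65 and 8.28 in wild-type (difference 0.74, SE 0.32). The Ahr difference was 0.38 without Cnot3+/- 1 and 1.10 without Cnot3+/- 2. The receptor's targets Nqo1 and Tiparp differed by 0.24 (SE 0.41) and 0.06 (SE 0.14).

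Family 2 subfamilies A and B, which include the targets of the constitutive androstane receptor, had 3 of 5 genes tested. Cyp2b10, the classical target of that receptor, stood at 7.64 and 7.13 in Cnot3+/-, with 7.69 and 7.32 in wild-type (difference -0.12, SE 0.23). All 3 of its probe sets had differences below 0, at -0.12, -0.18 and -0.22, and the groups overlapped on each, so the 2 genotypes were not separated for this gene. Cyp2b13, which is more abundant in female liver, stood at 3.93 and 4.11 in Cnot3+/- versus 4.15 and 4.28 in wild-type (difference -0.19, SE 0.14), under the level of the dim filter on Cnot3+/- 1. Cyp2a12, a steroid and bile acid hydroxylase, had no overlap and a difference of 0.08 (SE 0.13).

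Subfamily 2C, whose members oxidise drugs and turn arachidonic acid into epoxides, had 7 of 10 tested genes lower and 3 higher, with a median difference of -0.12. Cyp2c29 stood at 12.72 and 12.83 in Cnot3+/-, beside 13.10 and 13.19 in wild-type. Each genotype was tight and the groups did not overlap, so that the difference of -0.37 (SE 0.13, interval -0.71 to -0.03, limma adjusted p = 0.999) stayed between -0.42 and -0.31 whichever array was left out. Cyp2c38 differed in the same direction without overlap, at 8.57 and 8.78 in Cnot3+/-, with 8.99 and 8.95 in wild-type (difference -0.30, SE 0.14). Cyp2c37 stood at 12.01 and 11.47 in Cnot3+/- versus 11.95 and 12.44 in wild-type (difference -0.46, SE 0.26), with overlap and a range from -0.73 without Cnot3+/- 1 to -0.19 without Cnot3+/- 2. The nominally largest 2C difference, that of Cyp2c55 at -0.49 (SE 0.40), came from 1 array: its values were 6.02 and 7.22 in Cnot3+/-, beside 7.01 and 7.21 in wild-type, so Cnot3+/- 1 was the low array.

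Cyp2c70, the mouse enzyme that makes muricholic acids, stood at 13.16 and 12.77 in Cnot3+/-, beside 12.80 and 12.63 in wild-type (difference 0.25, SE 0.18), with overlap. Cyp2c23, read by the one _s_at probe set used for a P450 gene, had no overlap and differed by 0.20 (SE 0.14). The other 4 tested members of the subfamily differed by -0.21 to 0.01. The 2C genes are close in sequence and probe sets may read more than 1 of them, so their values are not independent. By position in GRCm38.p6, 9 tested 2C genes form 1 cluster, with 2 higher and 7 lower and a median of -0.21. No other P450 cluster with at least 3 tested genes had a median below -0.12; the set around Cyp2b10 was at -0.12 and the 2D cluster at -0.01.

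Subfamily 2D lay close to wild-type in its abundant members. Cyp2d9, a male-predominant testosterone hydroxylase, stood at 13.36 and 13.42 in Cnot3+/-, with 13.32 and 13.42 in wild-type (difference 0.02, SE 0.13), and Cyp2d10 and Cyp2d26 differed by -0.04 (SE 0.14) and -0.11 (SE 0.14). Cyp2d22, an enzyme of the family of human drug-metabolising CYP2D6, differed by 0.17 (SE 0.19) and by 0.24 on a second probe set. The 2 largest 2D differences were in dim genes and opposed each other. Cyp2d40 stood at 4.12 and 3.83 in Cnot3+/- versus 4.45 and 4.49 in wild-type (difference -0.49, SE 0.15, limma adjusted p = 0.999). Cyp2d12 stood at 4.48 and 4.52 in Cnot3+/-, beside 4.29 and 3.69 in wild-type (difference 0.51, SE 0.23), and 0.21 without wild-type 2. In neither gene did the groups overlap, but both lay below the median of every array, and the 2D genes are close in sequence. The Cyp2d40 mean in Cnot3+/- (3.98) and the Cyp2d12 mean in wild-type (3.99) lay under the dim filter of 4.06. Each gene thus passed the filter only through the genotype in which it was higher.

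Cyp2j6 had the largest positive difference among the probe sets tested, below the 0.77 of the second Cyp4a31 probe set. Its family makes epoxides from arachidonic acid. It stood at 7.83 and 7.78 in Cnot3+/-, with 6.93 and 7.54 in wild-type. Both Cnot3+/- arrays were above both wild-type arrays, and wild-type 1 was the low one: the difference of 0.58 (SE 0.23, interval -0.01 to 1.16) was 0.88 without wild-type 2 and 0.27 without wild-type 1. On its second probe set the difference was 0.40 and the groups overlapped. The other 2J genes, Cyp2j5, Cyp2j9 and Cyp2j11, differed by -0.07 (SE 0.19), 0.13 (SE 0.17) and -0.09 (SE 0.16).

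Subfamily 3A, the main drug-oxidising group and target of the pregnane X receptor, showed no separation of the genotypes in the 3 of 5 genes tested. Cyp3a11 stood at 13.94 and 14.11 in Cnot3+/- versus 14.07 and 14.07 in wild-type (difference -0.04, SE 0.14, interval -0.39 to 0.30). Cyp3a25 differed by -0.01 (SE 0.13). Both genes are bright, and array values compress the ratios of very bright probe sets. Cyp3a13 stood at 11.25 and 10.58 in Cnot3+/-, beside 10.84 and 10.44 in wild-type (difference 0.28, SE 0.27) and turned to -0.06 without Cnot3+/- 1. The receptor genes Nr1i2 (pregnane X receptor) and Nr1i3 (constitutive androstane receptor) differed by 0.18 (SE 0.24) and 0.08 (SE 0.17).

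Of the 6 remaining P450 genes, Cyp2e1, the ethanol-inducible enzyme that also activates acetaminophen and is raised by fasting, stood at 14.19 and 14.17 in Cnot3+/-, with 14.17 and 14.24 in wild-type (difference -0.02, SE 0.13, interval -0.35 to 0.30). Cyp2f2, a periportal enzyme, stood at 13.62 and 13.65 in Cnot3+/- versus 13.46 and 13.65 in wild-type (difference 0.08, SE 0.14). These values sit near the upper end of the array's range, where differences are also compressed. Cyp2g1, best known from the olfactory lining, stood at 4.76 and 5.61 in Cnot3+/-, beside 4.75 and 4.52 in wild-type. A difference of 0.54 (SE 0.30) came from Cnot3+/- 2 and was 0.12 without that array. Cyp20a1 differed by -0.17 (SE 0.25) on the probe set tested, by -0.55 on a second one without overlap and by -0.02 on the other, and Cyp2u1 differed by -0.15 (SE 0.16).

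**Figure D3:**
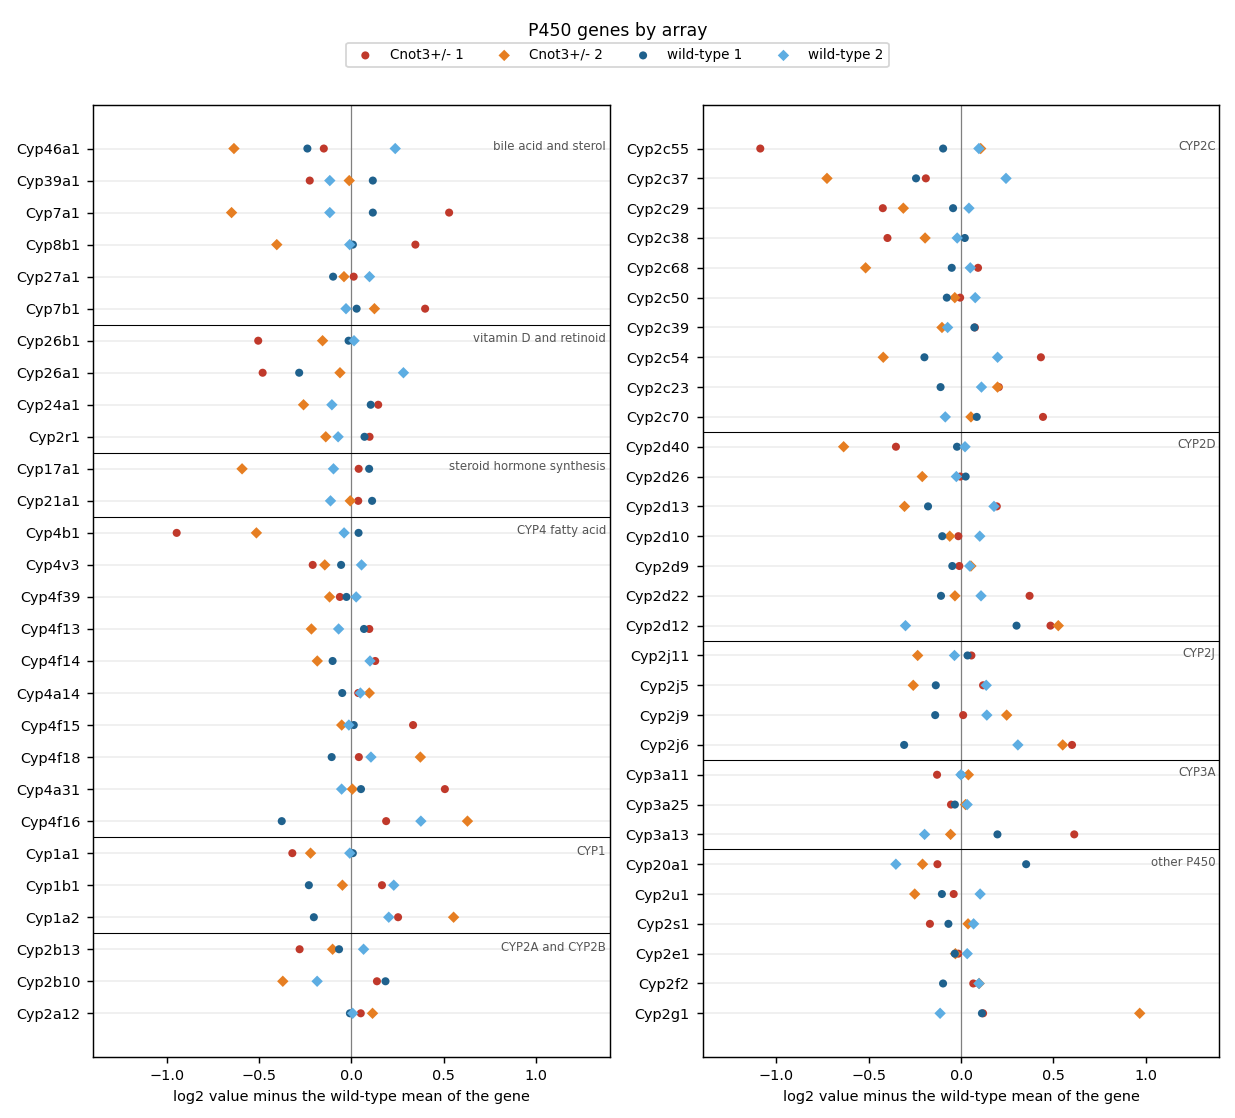
Log2 value minus the wild-type mean of the gene (horizontal) for each of the 58 tested P450 genes (vertical, grouped by role), with 1 point per array: red circles Cnot3+/- 1, orange diamonds Cnot3+/- 2, dark blue circles wild-type 1 and light blue diamonds wild-type 2. For Cyp4b1, Cyp2c29 and Cyp2d40 both Cnot3+/- points lie left of both wild-type points, while for Cyp7a1, Cyp8b1 and Cyp2c54 the Cnot3+/- points lie on either side.

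The 2 Cnot3+/- livers differed from each other in a number of P450 genes. Values were lower at Cnot3+/- 2 than at Cnot3+/- 1 in 35 of the 58 (60.3%, against 51.2% of all genes tested). They were at least 0.5 lower in 10 of the 58 and at least 0.5 higher in 2. Over all 13379 genes tested, 432 were that much lower and 1093 that much higher. After Cyp7a1 (-1.18), the genes with the lowest Cnot3+/- 2 values relative to Cnot3+/- 1 were Cyp2c54 at -0.85, Cyp8b1 at -0.75, Cyp3a13 at -0.67, Cyp17a1 at -0.63 and Cyp2c68 at -0.61, named after their values were seen. Cyp2c54 stood at 12.30 and 11.45 in Cnot3+/-, with 11.67 and 12.07 in wild-type, and its genotype difference was 0.01 (SE 0.32). Across P450 genes the median gap between arrays of one genotype was 0.26 in Cnot3+/- and 0.19 in wild-type, against 0.18 and 0.18 over all genes. The gap was the wider in Cnot3+/- for 39 of the 58 P450 genes, and for 6702 of all 13379 genes tested. Macrophage markers were higher on Cnot3+/- 2 than on Cnot3+/- 1 in 12 of 12 genes, by a median of 2.01, and hepatocyte markers lower in 6 of 8, by a median of -0.09. The part of cell make-up in these P450 differences was not tested.

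**Figure D4:**
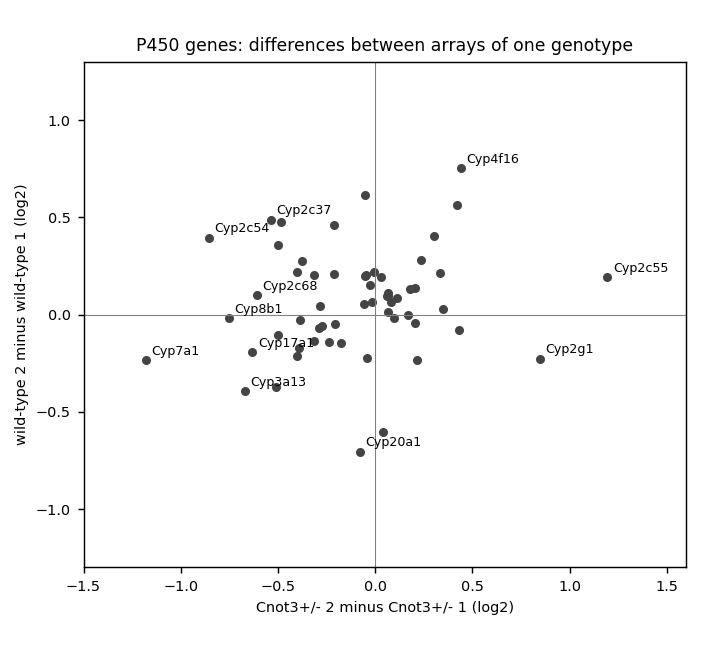
Each point is 1 of the 58 tested P450 genes, placed by Cnot3+/- 2 minus Cnot3+/- 1 (horizontal, log2) and wild-type 2 minus wild-type 1 (vertical, log2). Points spread further along the horizontal axis, from -1.18 for Cyp7a1 to 1.19 for Cyp2c55.

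For genes with several probe sets above the dim filter, the extra probe sets gave the same sign. There were 14 such extra probe sets in 12 genes, and 14 of the 14 had the sign of the probe set tested. Extra probe sets under the filter were not counted, and those did not all share the sign, as in Cyp1b1 and Cyp4f18. Of the 70 member genes, 12 were not tested because all of their 14 probe sets were dim, with values from 2.25 to 4.18: Cyp11a1, Cyp11b1, Cyp11b2, Cyp27b1, Cyp2b9, Cyp2b19, Cyp2c65, Cyp2d34, Cyp2j13, Cyp3a16, Cyp3a44 and Cyp4x1. Of the 58 tested, 45 lay above the median of every array and 13 did not. Among the dim genes Cyp2b9, a female-predominant P450, stood at 3.57 and 3.33 in Cnot3+/- versus 4.18 and 3.88 in wild-type. Its mean lay under the dim filter and it was not tested. Cyp3a16 and Cyp3a44, also female-predominant and not tested, differed by 0.01 and -0.12, with overlap in each. Sex-biased genes as a list gave few tested members: 3 of 8 female-predominant genes, all below 0 with Cyp17a1 the largest, and 2 of 2 male-predominant genes, Cyp7b1 and Cyp2d9, both above 0. These directions were not firm: Cyp17a1 turned to 0.04 without Cnot3+/- 2 and Cyp2d9 to -0.025 without wild-type 1. Cyp39a1 was at -0.0018 without wild-type 1. Cyp7b1 and Cyp2b13 kept their direction, but the Cyp2b13 mean in Cnot3+/-, 4.02, lay under the dim filter.

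No gene of the electron partner and heme lists passed the threshold. Of 6 electron partners tested, 1 was higher and 5 lower, with a median of -0.07 and the largest differences in Cyb5r3 (cytochrome b5 reductase) at 0.20 (SE 0.18) and Cyb5a (cytochrome b5) at -0.10 (SE 0.13). Of 10 heme genes, 3 were higher and 7 lower. Alas1, the rate-limiting enzyme of heme synthesis, stood at 11.73 and 12.22 in Cnot3+/-, beside 11.97 and 11.97 in wild-type (difference 0.01, SE 0.20). Hmox1, which breaks heme down and is abundant in macrophages, had values of 6.92 and 8.62 in Cnot3+/-, the second far above 6.64 and 6.94 in wild-type (difference 0.98, SE 0.55, and 0.13 without Cnot3+/- 2). Blvrb, biliverdin reductase B, differed by -0.38 (SE 0.22).

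Of 24 regulators tested, 14 were higher and 10 lower, and none passed the threshold. The largest difference was that of Bcl6, a repressor that takes part in the sex bias of liver genes, at 6.35 and 6.55 in Cnot3+/-, with 6.87 and 7.93 in wild-type (difference -0.95, SE 0.36). The Bcl6 difference was -0.42 without wild-type 2. Ppara, whose receptor drives Cyp4a genes, differed by 0.05 (SE 0.20).

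Lists that bear on where in the liver, and in what state, P450 genes are expressed gave the following values. Of 7 pericentral genes outside the family 6 were higher, with a mean of 0.30 in Cnot3+/- 1 and 0.47 in Cnot3+/- 2 against -0.18 in wild-type 1 and 0.18 in wild-type 2. Its largest members were the glutamate transporter gene Slc1a2 at 0.95 (SE 0.18) and the ammonium transporter gene Rhbg at 0.76 (SE 0.28), each without overlap and with an adjusted p of 0.999 in limma. Rhbg differed by 0.37 without Cnot3+/- 2 and by 1.14 without Cnot3+/- 1. No list of pericentral P450 genes was drawn up. As 3 examples, Cyp1a2 differed by 0.40, Cyp2e1 by -0.02 and Cyp2c29 by -0.37, and these do not stand for all pericentral P450 genes. Of 4 periportal genes 3 were higher, Ass1 at 0.71 (SE 0.22), Cps1 at 0.09 (SE 0.14) and Hal at 0.01 (SE 0.27). Arg1 differed by -0.12 (SE 0.15). The Ass1 probe set read only 6.63 to 7.66 over the arrays, whereas Arg1 and Cps1 read 13.31 to 13.65.

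Acute phase genes had 18 of 19 members higher (94.7%, against 47.9% of all genes) and 13 higher with no overlap (68.4%, against 14.1% of all genes), and their mean lay at 1.09 and 1.02 in Cnot3+/-, with wild-type at -0.07 and 0.07. Lcn2 was the 1 gene of the 83 tested in these pathway lists that passed, and rose by 4.22 (SE 0.14, limma adjusted p = 0.00687), with Saa2 next at 3.98 (SE 0.60). That call was lost without wild-type 1 (limma adjusted p = 0.967) and without wild-type 2 (0.678). Of the 58 P450 genes, 37 were lower (63.8%, against 52.1% of all genes). The groups did not overlap in 9 of these 37 (15.5% of the 58, near the 17.4% of all genes). Without Cnot3+/- 2, 34 of the 58 were higher instead. Relative to wild-type, the P450 median was 0.04 in Cnot3+/- 1 and -0.06 in Cnot3+/- 2. The part of the acute phase response in P450 values was not tested.

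**Figure D5:**
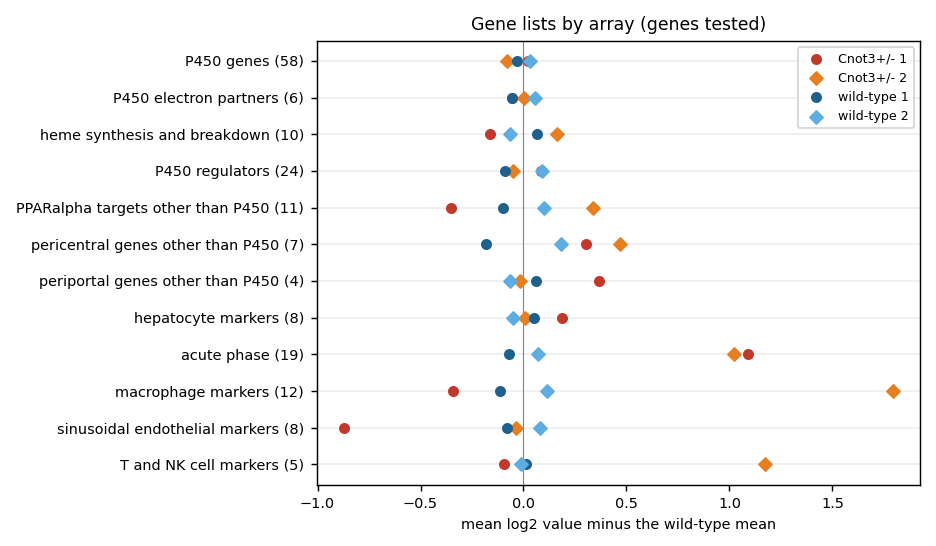
Mean log2 value minus the wild-type mean (horizontal) of each gene list (vertical, number of genes tested in brackets), with 1 point per array in the colours of the legend. The P450 points lie between -0.08 and 0.03, the acute phase points of both Cnot3+/- arrays near 1, and the macrophage point of Cnot3+/- 2 at 1.79.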

How the data were processed

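The authors deposited log2 expression values per probe set computed by RMA, as the submitters' processing notes state. RMA corrects background, normalizes across arrays and summarises probes. Its version and the set of arrays it was run on were not stated in the labels. Scanner files were not used here, so background correction was not varied. Values between 1.85 and 14.96 fit a log2 scale. Array values compress ratios of dim and of very bright probe sets and cannot separate near-identical transcripts.

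Probe sets were named through the platform annotation: 34958 of 45101 had 1 symbol, 932 had several and 9211 had none. Through their gene identifiers 34754 were found in RefSeq's GRCm38.p6 gene table, with 0 changes of symbol. Probe sets in the lowest 40% of mean value (up to 4.06) were left out, and each gene was represented by its brightest probe set, an _x_at or _s_at one only where there was no other.

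The Cnot3+/- arrays were compared with wild-type in limma 3.58.1 (R 4.3.3), two-sided, with no covariate, Benjamini-Hochberg over all genes and a threshold of 0.05. The fit had 2 residual degrees of freedom and the prior added 3.17. Standard errors (SE) are moderated, and confidence intervals are at 95%. The code was tested on simulated data. P-values set each difference against a variance drawn from the 2 animals per genotype and from the prior over all genes tested. Promoter sequences are RefSeq's, from the same assembly.

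The genes named are, per role, the 3 of largest difference, a set of well-known P450 genes, any gene at least 1.5-fold apart without overlap, and the 2 of largest difference in each other list. Other genes appear as part of a description. The members, lists and rules were chosen with earlier results of these data known. P450 reductase (Por) was not analysed here. Alternatives were other filters, probe set averaging, a fit of every probe set, quantile normalization, unmoderated variances, a replicate block and leaving out each array.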

Additional observations from a re-analysis of the deposited data

How the results depend on the processing

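No P450 gene passed under any of the 11 alternatives run. Of these, 7 changed the processing or the model and 4 left out 1 array each. The number of P450 genes without overlap was 10 of 43 when the filter removed the dimmest 60%, where fewer genes were tested (23.3%, against 30.5% of all genes). The replicate block (the number in the labels) left 0 genes past the threshold over all genes, so Lcn2 and Cox6b2 no longer passed, and 0 in the pathway lists. Same-numbered arrays had deviations that correlated at 0.16 across genes, which does not establish a pairing. Without moderation of variances 0 pathway list genes passed, and the 2 genes called were not Lcn2 or Cox6b2. Under quantile normalization Cyp27a1 turned to 0.0078 and Cyp2e1 to 0.00014, and with probe sets averaged Alas1 turned to -0.053. Leaving out 1 array in turn gave 0 to 38 genes past the threshold over all genes, 0 to 1 in the pathway lists, 19 to 34 P450 genes higher, 33 to 43 without overlap (56.9% to 74.1%, against 61.2% to 69.4% of all genes, since 1 array against 2 separates more easily) and a P450 median of -0.061 to 0.040. With 1 array left out the lone array is assumed to vary like the other genotype. Of the 32 P450 differences that turned, 12 were of genes outside the naming rule, among them Cyp2c54 at -0.42 to 0.43. The 20 named had these ranges (log2): Cyp17a1 -0.59 to 0.040, Cyp1b1 -0.17 to 0.29, Cyp20a1 -0.52 to 0.18, Cyp21a1 -0.097 to 0.13, Cyp24a1 -0.26 to 0.15, Cyp26a1 -0.55 to 0.012, Cyp27a1 -0.11 to 0.085, Cyp2b10 -0.37 to 0.14, Cyp2c55 -1.09 to 0.11, Cyp2d22 -0.033 to 0.37, Cyp2d9 -0.025 to 0.069, Cyp2e1 -0.056 to 0.011, Cyp2f2 -0.015 to 0.18, Cyp2j11 -0.23 to 0.056, Cyp2j9 -0.010 to 0.27, Cyp3a11 -0.13 to 0.040, Cyp3a13 -0.056 to 0.61, Cyp3a25 -0.054 to 0.025, Cyp7a1 -0.65 to 0.53 and Cyp8b1 -0.40 to 0.35; and outside the family Alas1 -0.24 to 0.25, Apob -0.12 to 0.45, Col1a1 -0.16 to 1.08, Col3a1 -0.15 to 1.61, Nkg7 -0.32 to 2.54, Nqo1 -0.27 to 0.76, Nr1i2 -0.12 to 0.48, Nr1i3 -0.084 to 0.25, Pdk4 -0.26 to 2.57, Ppara -0.19 to 0.30, Sox9 -0.032 to 0.57 and Tiparp -0.030 to 0.14.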

Other observations

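Lists for other cell types gave these mean values relative to wild-type, in Cnot3+/- 1 and Cnot3+/- 2 first. Sinusoidal endothelial markers had 8 of 8 genes lower, at -0.87 and -0.03 against -0.08 and 0.08 in wild-type, with Clec4g at -0.99 (SE 0.39) and Fcgr2b at -0.69 (SE 0.29). T and NK cell markers had 5 of 5 genes higher, at -0.09 and 1.17 against 0.01 and -0.01, with Nkg7 at 1.11 (SE 0.92) and Cd3g at 0.87 (SE 0.51). Stellate cell markers had 5 of 8 higher, at -0.28 and 0.57 against 0.04 and -0.04, with Col3a1 at 0.73 (SE 0.58) and Col1a1 at 0.46 (SE 0.41). Cholangiocyte markers had 3 of 3 higher, at 0.17 and 0.40 against -0.08 and 0.08, with Epcam at 0.40 (SE 0.18) and Sox9 at 0.27 (SE 0.23). Adrenal cortex markers had 1 of 3 higher, with Nr5a1 at -0.24 (SE 0.17) and Scarb1, which liver also expresses, at 0.22 (SE 0.13). Among macrophage markers Marco differed by 2.16 (SE 0.97) and Cd5l by 1.16 (SE 0.64). Without Cnot3+/- 2 these were 0.61 and 0.16. Without Cnot3+/- 1 they were 3.70 and 2.17, and both passed (limma adjusted p = 0.0217 and 0.0455). Among hepatocyte markers Ahsg by 0.29 (SE 0.13) and Apob by 0.17 (SE 0.28). None of these genes passed the threshold with all 4 arrays.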
